A study of Mus musculus with 9 samples.

Results

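The proteasome genes of mouse ear skin were followed over 6 h of contact with an allergen, an irritant or the vehicle. They were taken by symbol: every probe set with 1 annotated gene whose symbol starts with Psma, Psmb, Psmc, Psmd or Psme and a digit, plus Pomp, leaving out the immunoproteasome genes Psmb8, Psmb9 and Psmb10. This gave 42 of the 18193 genes on the array, with 88 probe sets. By name, 40 of them encode subunits, activators or assembly factors, and 2 that match the prefix do not: Psmc3ip, which encodes a partner of meiotic recombinases, and Psme3ip1, which encodes a protein that binds the activator PSME3. The skin came from C57BL/6 mice. DNFB (dinitrofluorobenzene, a contact allergen) or BAC (benzalkonium chloride, a detergent-like irritant) had been applied to the right ear, and acetone with olive oil, the vehicle, to the left. Each group had 3 arrays. Side of the ear and treatment cannot be told apart between a compound and the vehicle, while both compounds were on the right ear. The sources used here state no dose, age or sex. Whether replicates were separate animals is not stated either, so p-values reflect only sample-to-sample spread, possibly technical.

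The proteasome is the barrel-shaped protease that degrades proteins tagged with ubiquitin. Its 20S core is built of rings of alpha subunits, which form the gate, and beta subunits, of which PSMB5, PSMB6 and PSMB7 carry the active sites. The 19S cap recognises tagged proteins, removes the tag and, with its ring of ATPases, unfolds the chain and feeds it into the core; other activators bind the core in place of the cap. When proteasome activity falls short, the transcription factor NFE2L1 is known to raise the subunit genes together, and NFE2L2 can do so under oxidative stress, both as partners of small MAF proteins on antioxidant response elements.

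Promoters are shown for the catalytic subunits Psmb5 and Psmb6, whose promoters hold the core of that element, for Psmb3, which differed between the compounds, and for Psmd11, which was higher after DNFB. Each is the RefSeq sequence (GRCm38.p6) from 250 bases before to 50 bases after the annotated gene start, written 5′ to 3′ on the strand of the gene. Capitals mark the antioxidant response element core TGACNNNGC in Psmb5 (chr14:54617946-54618245, minus strand) and Psmb6 (chr11:70525107-70525406, plus strand), and the NF-Y box CCAAT in Psmb3 (chr11:97703184-97703483, plus strand). Psmd11 (chr11:80428365-80428664, plus strand) has no capitals because none of the motifs searched is in this window.
Psmb5: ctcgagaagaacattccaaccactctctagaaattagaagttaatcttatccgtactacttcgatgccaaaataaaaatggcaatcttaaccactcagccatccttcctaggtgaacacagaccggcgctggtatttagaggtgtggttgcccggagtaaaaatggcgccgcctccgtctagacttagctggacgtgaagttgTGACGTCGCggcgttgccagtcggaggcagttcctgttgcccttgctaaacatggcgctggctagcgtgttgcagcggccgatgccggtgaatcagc
Psmb6: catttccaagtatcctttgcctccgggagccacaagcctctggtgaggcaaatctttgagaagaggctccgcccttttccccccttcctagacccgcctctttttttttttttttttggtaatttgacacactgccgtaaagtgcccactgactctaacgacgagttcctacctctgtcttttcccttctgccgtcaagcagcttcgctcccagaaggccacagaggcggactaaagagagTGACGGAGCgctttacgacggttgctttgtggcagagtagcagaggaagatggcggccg
Psmb3: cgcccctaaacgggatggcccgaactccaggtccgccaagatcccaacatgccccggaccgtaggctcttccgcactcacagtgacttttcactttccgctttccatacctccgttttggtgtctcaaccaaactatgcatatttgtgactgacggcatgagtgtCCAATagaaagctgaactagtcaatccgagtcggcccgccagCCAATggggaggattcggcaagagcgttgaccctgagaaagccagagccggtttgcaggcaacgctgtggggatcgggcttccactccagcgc
Psmd11: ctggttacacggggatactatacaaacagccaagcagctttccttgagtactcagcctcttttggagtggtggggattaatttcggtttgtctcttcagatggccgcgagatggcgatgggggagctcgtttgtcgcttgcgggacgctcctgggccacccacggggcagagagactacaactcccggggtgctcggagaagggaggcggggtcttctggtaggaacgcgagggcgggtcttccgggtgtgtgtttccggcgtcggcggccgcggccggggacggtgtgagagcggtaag

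In Psmb5 the core element lies 47 to 39 bases before the start, and in Psmb6 it lies 9 to 1 bases before it. Both strands of 38 promoters of 35 members were searched, beside 32851 promoters of all genes. Psma8, Psmb1, Psmb2, Psmb7, Psmc3, Psmd3 and Psmd7 had no promoter in the reference and were not searched. The TGACNNNGC core was in 6 of the 38 (15.8%) and in 12.4% of all promoters; the other 4 belong to Psmc6, Psmd9, Psmd12 and Psme4. CCAAT was in 15 of 38 (39.5%, all promoters 37.4%). The heat shock element core GAANNTTC was in 1, that of Psmb5 (2.63%, all promoters 7.86%). No match of a motif overlapped a match of another motif in the members. A match of letters is a description and not a site.

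Values are MAS5 signals, the brightness of a probe set on a linear scale, and a gene is read from its brightest probe set. Changes are differences of group means of log2(signal + 16), with a standard error (SE) and a p from limma, a linear model fitted to all tested genes. A gene rose or fell, or was called, where that p, adjusted over all tested genes by the Benjamini-Hochberg method, was under 0.05.

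The ear skin expressed the proteasome throughout. Of the 42 members, 40 were tested, and each of these exceeded the 40th percentile in all 9 arrays, so none passed the filter through a single group. The other two are subunits known from other tissues: Psma8, the testis form of an alpha subunit, with signals between 5.77 and 30.3, and Psmb11, the thymus form of a beta subunit, with signals between 5.86 and 56.0. In the median member the spread between arrays of a group was low. The median coefficient of variation was 8.74% with the vehicle, 6.23% with DNFB and 6.59% with BAC, where all 14122 tested genes had 13.3%, 15.6% and 14.6%. Single members varied far more: Psme3 reached 52.25% with the vehicle and 49.5% with BAC, and Psmd10 30.1% with DNFB.

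The ear samples held the markers of skin, and other cell types moved with the treatments. All 12 keratinocyte markers were measured; their summed signal was 102586 to 115541 with the vehicle, 87532 to 100667 with DNFB and 97989 to 100797 with BAC, and 7 fell after DNFB and 5 after BAC. Of 10 neutrophil markers measured, 7 rose after DNFB and 8 after BAC, with sums of 1446 to 5917, 11446 to 21228 and 20217 to 28888 in the same order. Of 14 skeletal muscle markers, 8 rose after DNFB and 0 after BAC (limma; 13 and 4 at an unadjusted p under 0.05), with sums of 45882 to 60040, 66878 to 84155 and 52216 to 80781. Of 8 monocyte and macrophage markers, 4 rose after each compound, with sums of 10503 to 12306, 13687 to 15097 and 15841 to 16713. Of 8 fibroblast markers, 3 rose after DNFB and 1 after BAC, with sums of 63367 to 72196, 80150 to 90642 and 72349 to 83420, and of 7 endothelial markers 2 and 1 rose, with sums of 2192 to 2590, 2687 to 3436 and 2200 to 2861. After DNFB 1 of 5 T cell markers fell and 1 of 5 cartilage markers rose, with 0 calls in either list after BAC (limma; also 0 at an unadjusted p under 0.05). T cell sums were 453 to 605, 324 to 455 and 365 to 473, and cartilage sums 7601 to 9299, 8166 to 8682 and 7758 to 9638. None of the measured markers of these lists was at 0. The 3′ over 5′ signal of Gapdh, which grows as RNA is degraded, ran from 0.856 to 0.880 with the vehicle and from 0.917 to 0.932 with BAC, and DNFB replicate 2 stood out at 1.36 beside 0.841 and 0.943. The same ratio of actin ran from 1.05 to 1.10 with the vehicle and from 1.18 to 1.22 with BAC. It was 1.09, 1.28 and 1.23 in DNFB replicates 1 to 3. In both ratios every BAC array lay above every vehicle array. The part of these shifts in the proteasome values was not tested, and in whole skin a change in the number of cells of a type cannot be told apart from a change in RNA per cell.

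After DNFB the proteasome genes as a group stayed close to the vehicle. The 40 log2 changes ran from -0.36 to 0.42, with a median of 0.05 beside 0.00 for all tested genes. Their 10th to 90th percentiles were -0.19 and 0.29, where all genes spanned -0.52 to 0.50. The median SE was 0.11 for the members and 0.18 for all tested genes, so these ranges also differ in precision. The members' median change was -0.02 with quantile normalization and -0.04 with the mean of each gene's probe sets, so the group's direction depended on these choices. Only Psmb2 and Psmd11 rose (2 of 40, 5.0%, where 6.76% of all tested genes rose), and 0 fell (all tested genes 7.08%). At an unadjusted p under 0.05, limma gave 6 higher and 1 lower. In both directions together this was 17.5% of members beside 26.3% of all tested genes. With quantile normalization 1 rose and 1 fell. The 95% interval of the change lay within 1.5-fold either way for 35 of the 40, and within 2-fold for 39.

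After BAC the values were mostly just below the vehicle, by an amount that depended on the arrays used. The changes ran from -1.08 to 0.33, with a median of -0.08 beside -0.03 for all genes; across all settings tried this median lay between -0.16 and -0.02. Without vehicle replicate 2 it was -0.02 beside -0.04 for all genes, and 19 of 40 members were above 0 beside 45.6% of all genes; with the filter at the 60th percentile it was -0.08 beside -0.07. Psmb3, Psmd3, Psmd13 and Psmd5 fell (4 of 40, 10% of members, where 7.64% of all tested genes fell), and 0 rose (all tested genes 6.59%). At an unadjusted p under 0.05, limma gave 11 lower and 1 higher. In both directions together this was 30% of members beside 27.7% of all tested genes. In 30 of the 40 the interval lay within 1.5-fold. Both comparisons use the same vehicle arrays, so a high or low vehicle array moves them together.

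**Figure D1:**
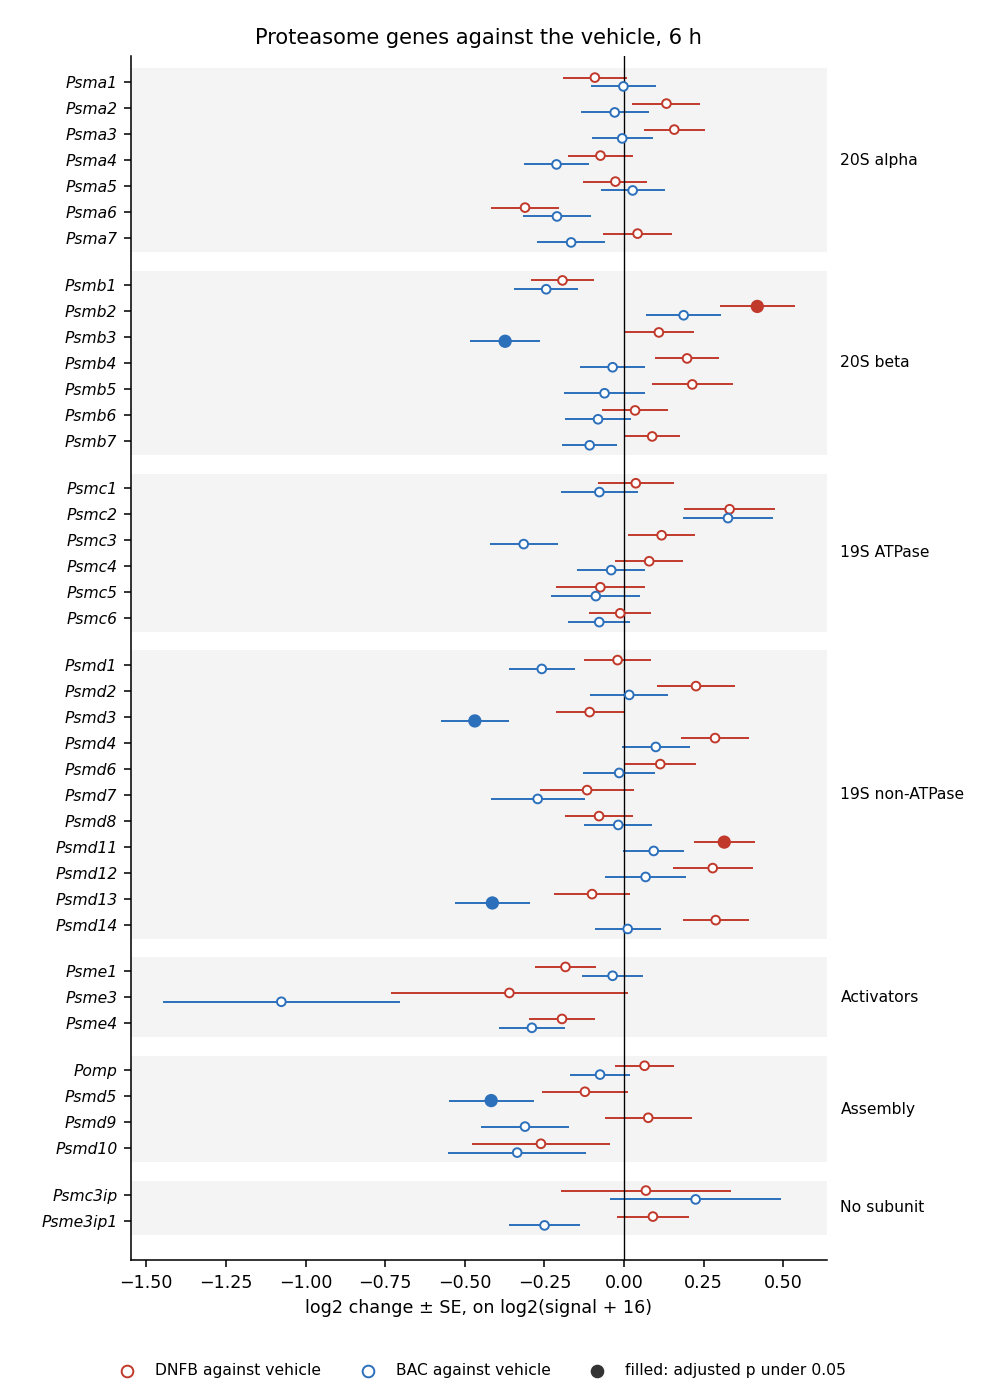
Log2 change against the vehicle (x axis, on log2(signal + 16), bars ± SE from limma) of the 40 tested proteasome genes, grouped by role; red is DNFB, blue is BAC, and filled points have an adjusted p under 0.05. Most points lie near 0; Psmb2 and Psmd11 are filled on the right for DNFB, and Psmb3, Psmd3, Psmd13 and Psmd5 on the left for BAC.

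The alpha subunits, which form the outer rings and the gate of the core, gave no call in either comparison. After DNFB 3 of 7 lay above 0 and after BAC 1 of 7, with medians of -0.03 in both. Psma6 had the lowest change among them after DNFB. Its signals were 4783, 4873 and 4353 in the vehicle, 3653, 4180 and 3472 in the DNFB and 3695, 3935 and 4495 in the BAC arrays. Every DNFB array lay below every vehicle array, and the change of -0.31 ± 0.11 (SE) had a limma adjusted p of 0.0693. A further, dimmer probe set of the gene gave -0.33 ± 0.10, with a limma adjusted p of 0.0434 over all probe sets, while another tested one, dimmer still, gave 0.63 ± 0.45 (0.396). The mean of the probe sets gave -0.05 after DNFB (limma adjusted p = 0.891). The main one passed the threshold with quantile normalization and without DNFB replicate 2, which gave the only member lower after DNFB in those settings.

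Among the beta subunits, 6 of 7 lay above 0 after DNFB and 1 of 7 after BAC, with medians of 0.11 and -0.08. Psmb2 (Entrez gene 26445), a subunit without catalytic activity, rose after DNFB. Its signals were 1316, 1475 and 1182 in the vehicle, 1899, 1735 and 1678 in the DNFB and 1328, 1530 and 1674 in the BAC arrays. Each DNFB array was above each vehicle and each BAC array. The rise was 1.34-fold (log2 change 0.42 ± 0.12, limma adjusted p = 0.0278). It lost the call without any single one of vehicle replicates 1 and 3 and DNFB replicates 1 and 2, at adjusted p of 0.0843, 0.126, 0.0940 and 0.0588, and with arrays centred on their medians (0.109) or no intensity trend (0.0986).

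Psmb3 (Entrez gene 26446), also without catalytic activity, fell after BAC. Signals were 2185, 2294 and 2055 in the vehicle, 2323, 2154 and 2587 in the DNFB and 1550, 1608 and 1888 in the BAC arrays. All BAC arrays lay below all others, and the DNFB and vehicle arrays overlapped. The change after BAC was -0.37 ± 0.11 (limma adjusted p = 0.0335), to 0.77 of the vehicle. A further probe set of the gene gave -0.57 ± 0.11 after BAC. In limma without vehicle replicates 1 or 2 or BAC replicates 1 or 2 in turn, the adjusted p was 0.103, 0.0965, 0.114 and 0.114, and it was 0.105 without the intensity trend.

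The catalytic subunits gave no call. Psmb5, the chymotrypsin-like subunit and the main target of proteasome inhibitors, had 2078, 2863 and 1998 in the vehicle, 2694, 2670 and 2588 in the DNFB and 2016, 2213 and 2345 in the BAC arrays. Its vehicle replicate 2 was above all DNFB arrays, while the other vehicle arrays were below them. The change was 0.21 ± 0.13 after DNFB (adjusted p = 0.313) and -0.06 ± 0.13 after BAC (0.80); without vehicle replicate 2 these became 0.38, with a limma adjusted p of 0.0316, and 0.10. Psmb6, the caspase-like subunit, had 2151, 2502 and 2065 in the vehicle, 2239, 2184 and 2444 in the DNFB and 2044, 2143 and 2138 in the BAC arrays, with overlap between each compound and the vehicle and changes of 0.03 ± 0.10 and -0.08 ± 0.10. Psmb7, the trypsin-like subunit, had 5600, 5365 and 5547, then 5813, 5904 and 5836, then 5186, 5240 and 4895. Here the groups did not overlap, with DNFB highest and BAC lowest, yet the changes of 0.09 ± 0.09 and -0.11 ± 0.09 did not pass limma's test (adjusted p = 0.58 and 0.455).

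Among the 6 ATPases of the cap, which unfold the substrate, none was called against the vehicle. Their medians were 0.06 after DNFB and -0.08 after BAC. Psmc3 had signals of 2078, 2493 and 1954 in the vehicle, 2352, 2312 and 2383 in the DNFB and 1674, 1718 and 1818 in the BAC arrays. Each BAC array was below each vehicle array, and the change of -0.32 ± 0.11 missed the threshold (limma adjusted p = 0.0613); it passed with quantile normalization (0.0228) and without vehicle replicate 3 (0.0452). Psmc2 had the highest change after BAC, 0.33 ± 0.14 (adjusted p = 0.147), and also 0.33 after DNFB. A further probe set of similar brightness, with a vehicle mean of 1943 beside 1951, gave 0.12 ± 0.09 after BAC, and the mean of the Psmc2 probe sets gave 0.05. Leaving out 1 array gave 0.19 to 0.50 after BAC, with a call without vehicle replicate 2.

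The 11 non-ATPase subunits of the cap, which form its lid, scaffold and ubiquitin receptors, held calls in both directions. Psmd11 (Entrez gene 69077), a lid scaffold subunit, rose after DNFB. It had 3027, 3265 and 2905 in the vehicle, 4005, 3506 and 3944 in the DNFB and 3134, 3309 and 3361 in the BAC arrays. The DNFB arrays were above all others. The rise was 1.24-fold (0.31 ± 0.10, limma adjusted p = 0.0409). It is the gene with the most probe sets, 8, and it kept the call in 6 of 20 alternative settings; with the mean of its probe sets the change was 0.15 (adjusted p = 0.557). It lost the call without any single one of vehicle replicates 1 and 3, DNFB replicates 1 and 3 and BAC replicates 1 and 2 (adjusted p = 0.132, 0.139, 0.119, 0.118, 0.0527 and 0.0559 in that order). The ubiquitin receptor Psmd4 (0.29 ± 0.11, adjusted p = 0.095) and the deubiquitinase Psmd14 (0.29 ± 0.10, adjusted p = 0.0823) also had all DNFB arrays above all vehicle arrays without passing; the mean of the Psmd4 probe sets gave -0.15.

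Psmd3 (Entrez gene 22123), a lid subunit, fell after BAC. Its signals were 1306, 1331 and 1366 in the vehicle, 1215, 1152 and 1351 in the DNFB and 920, 1041 and 923 in the BAC arrays. Every BAC array was below every other array. The change was -0.47 ± 0.11 (limma adjusted p = 0.00797), to 0.72 of the vehicle, and it was called in 20 of 20 alternative settings. Psmd13 (Entrez gene 23997), another lid subunit, fell after BAC from 1164, 1321 and 1061 to 894, 814 and 936, with 1122, 994 and 1184 after DNFB. Its BAC arrays also lay below all others. The change was -0.41 ± 0.12 (limma adjusted p = 0.0294). It was -0.17 (adjusted p = 0.454) with the mean of its 4 probe sets, and in limma without vehicle replicates 1 or 2 or BAC replicates 1 or 2 in turn the adjusted p was 0.0819, 0.111, 0.0579 and 0.118, and it was 0.0832 without the intensity trend.

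The activators that bind the core in place of the cap were below the vehicle in both comparisons, and none passed the test. Psme1, a subunit of the interferon-inducible activator, had 1506, 1624 and 1609 in the vehicle, 1434, 1338 and 1393 in the DNFB and 1573, 1518 and 1527 in the BAC arrays. Every DNFB array was below every vehicle and every BAC array (-0.18 ± 0.10 against the vehicle, adjusted p = 0.242). Psme3, the nuclear activator, had 496, 232 and 744 in the vehicle, 394, 326 and 310 in the DNFB and 272, 301 and 96.8 in the BAC arrays. The vehicle arrays differed widely among themselves and overlapped both compounds, the coefficient of variation was the highest of the members with the vehicle and with BAC, and the change of -1.08 ± 0.37 after BAC had an adjusted p of 0.068. It passed limma's test with arrays centred on their medians (0.0258), without vehicle replicate 2 (-1.52, 0.00834) and without BAC replicate 2 (-1.35, 0.0464), while a further probe set of the gene gave 0.23 ± 0.17. Psme4, which encodes a large nuclear activator, had 1133, 1093 and 1075, then 916, 995 and 968, then 948, 915 and 833. Both compounds lay below the vehicle in every array (-0.19 ± 0.10 and -0.29 ± 0.10, adjusted p = 0.259 and 0.0808).

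Of the assembly factors, Psmd5 fell after BAC. Psmd5 (Entrez gene 66998), a chaperone for the base of the cap, had 531, 608 and 548 in the vehicle, 520, 585 and 446 in the DNFB and 454, 398 and 399 in the BAC arrays. The BAC arrays were below the vehicle arrays but overlapped the DNFB arrays. The change of -0.42 ± 0.13 had a limma adjusted p of 0.0495, at the edge of the threshold, and was called in 6 of 20 alternative settings; it was lost without any array of the vehicle or BAC groups, at adjusted p between 0.0531 and 0.147, and without DNFB replicate 1 (0.0523). Pomp, which matures the core, had 2595, 2590 and 2560 in the vehicle, 2801, 2698 and 2604 in the DNFB and 2292, 2609 and 2457 in the BAC arrays. The DNFB arrays lay just above the vehicle arrays, and the changes were 0.06 ± 0.09 and -0.08 ± 0.09. The other 2, Psmd9 and Psmd10, had values of -0.31 ± 0.14 and -0.34 ± 0.22 after BAC, without a call.

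**Figure D2:**
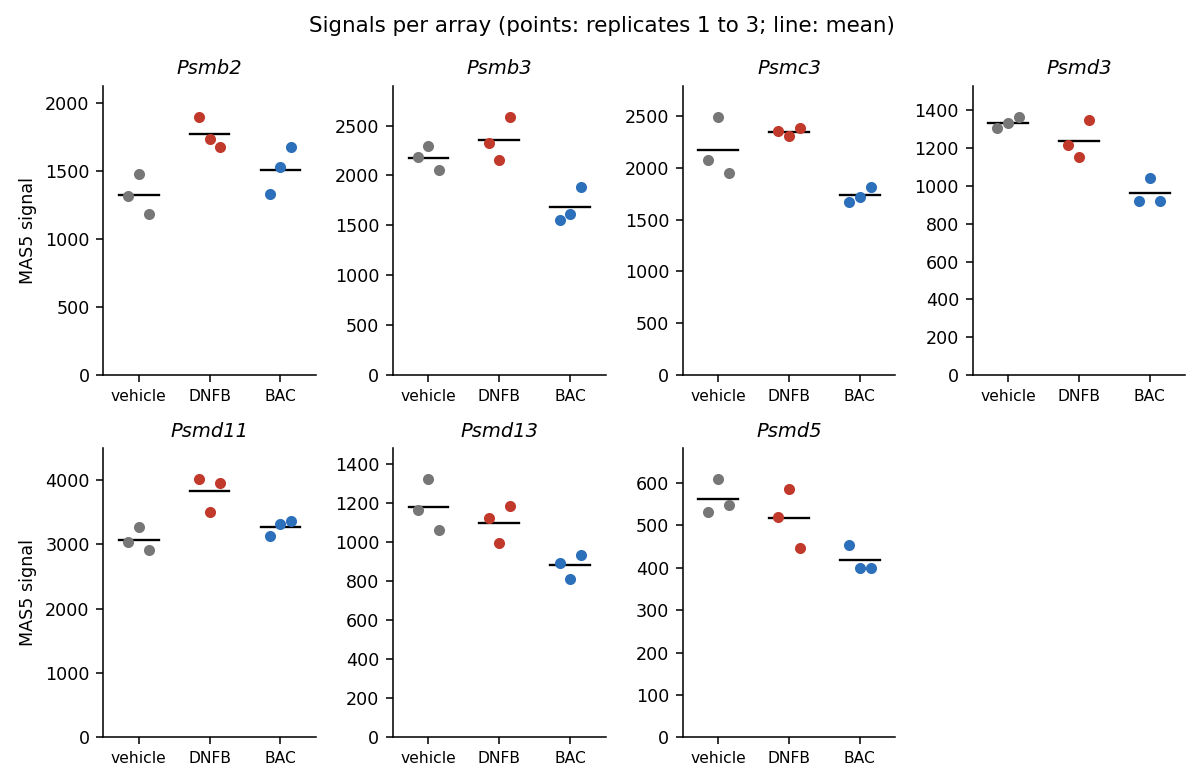
MAS5 signal (y axis, linear, starting at 0) in each of the 9 arrays for the 7 members called in at least 1 comparison; points are replicates 1 to 3 and lines are group means. Psmb3, Psmc3, Psmd3 and Psmd13 are lowest in the BAC arrays, and Psmb2 and Psmd11 highest in the DNFB arrays.

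The direct comparison of the compounds gave the most uniform pattern. Its mean differences and overlap counts were computed from the DNFB and BAC arrays alone. The vehicle arrays still entered the filter, the choice of probe set, and the shared spread behind limma's SEs, intervals and p-values. Of the 40 members 34 (85.0%) had a higher value after DNFB than after BAC, beside 53.3% of all tested genes, with a median log2 difference of 0.16 beside 0.03. In 21 members (52.5%) every DNFB array lay above every BAC array, where 13.7% of all tested genes did so; in 1, Psme1, every DNFB array lay below (all tested genes 11.4%). Without the pair of prefix matches these counts were 33 and 20 of 38. Members can move together from array to array, so the counted members are not separate evidence. Within the vehicle group alone, the members' median lay 0.11 above the vehicle mean in replicate 2 and at -0.09 from it in replicate 3. The median difference of 0.16 has to be read beside that spread. The differences between the compounds were small: 39 of 40 intervals lay within 2-fold and 34 within 1.5-fold. The 10th to 90th percentiles of the members were -0.06 and 0.36, where all genes spanned -0.48 to 0.44. The median SE was 0.11 for the members and 0.18 for all tested genes. The members' range and their shares without overlap are thus set against genes measured less precisely. The count without overlap was 16 with quantile normalization, 22 with arrays centred on their medians and 15 after averaging each gene's probe sets, beside 14.3%, 15.8% and 11.1% of all genes. With the filter at the 60th percentile it was 21 of 39 (53.8%), beside 16.5% of all genes. It was 22 to 25 when any 1 DNFB or BAC array was left out, beside 17.9% to 21.3%. Leaving out an array can only keep or raise such a count, so it could not have fallen below 21.

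The groups of subunits took part unevenly in this count. It held 6 of the 7 beta subunits, all but Psmb1, and 7 of the 11 non-ATPase subunits of the cap. It held 3 of the 7 alpha subunits, 2 of the 6 ATPases, 1 of the 3 activators and 1 of the 4 assembly factors. The median difference was 0.23 in the beta subunits, 0.21 in the non-ATPase subunits, 0.14 in the alpha subunits and 0.09 in the ATPases; differences between these groups were not tested.

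By limma, 2 members were higher after DNFB than after BAC (5.0%, all tested genes 3.14%) and 0 lower (all tested genes 3.66%). At an unadjusted p under 0.05 these counts were 13 and 0, together 32.5% of members beside 21.6% of all tested genes. The 2 called members were Psmb3, with a difference of 0.48 ± 0.11 or 1.40-fold (adjusted p = 0.0154), and Psmc3, with 0.43 ± 0.11 or 1.35-fold (adjusted p = 0.0228). The further probe set of Psmb3 differed by 0.62 ± 0.11, and a further probe set of Psmd11 by 0.53 ± 0.13. Psmb3 lost the call without DNFB replicate 3 or BAC replicates 1 or 2 (limma adjusted p = 0.0770, 0.0645 and 0.0699), and Psmc3 without DNFB replicates 2 or 3 or BAC replicates 1 or 2 (0.0558, 0.0764, 0.0751 and 0.0797). Both lost it without the intensity trend (0.0874 and 0.103), and Psmc3 also with arrays centred on their medians (0.0606). Psmd3 followed with 0.36 ± 0.11 (adjusted p = 0.0558). In the catalytic subunits the differences were 0.28 ± 0.13 for Psmb5, 0.12 ± 0.10 for Psmb6 and 0.20 ± 0.09 for Psmb7, each with no overlap and none with a call.

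**Figure D3:**
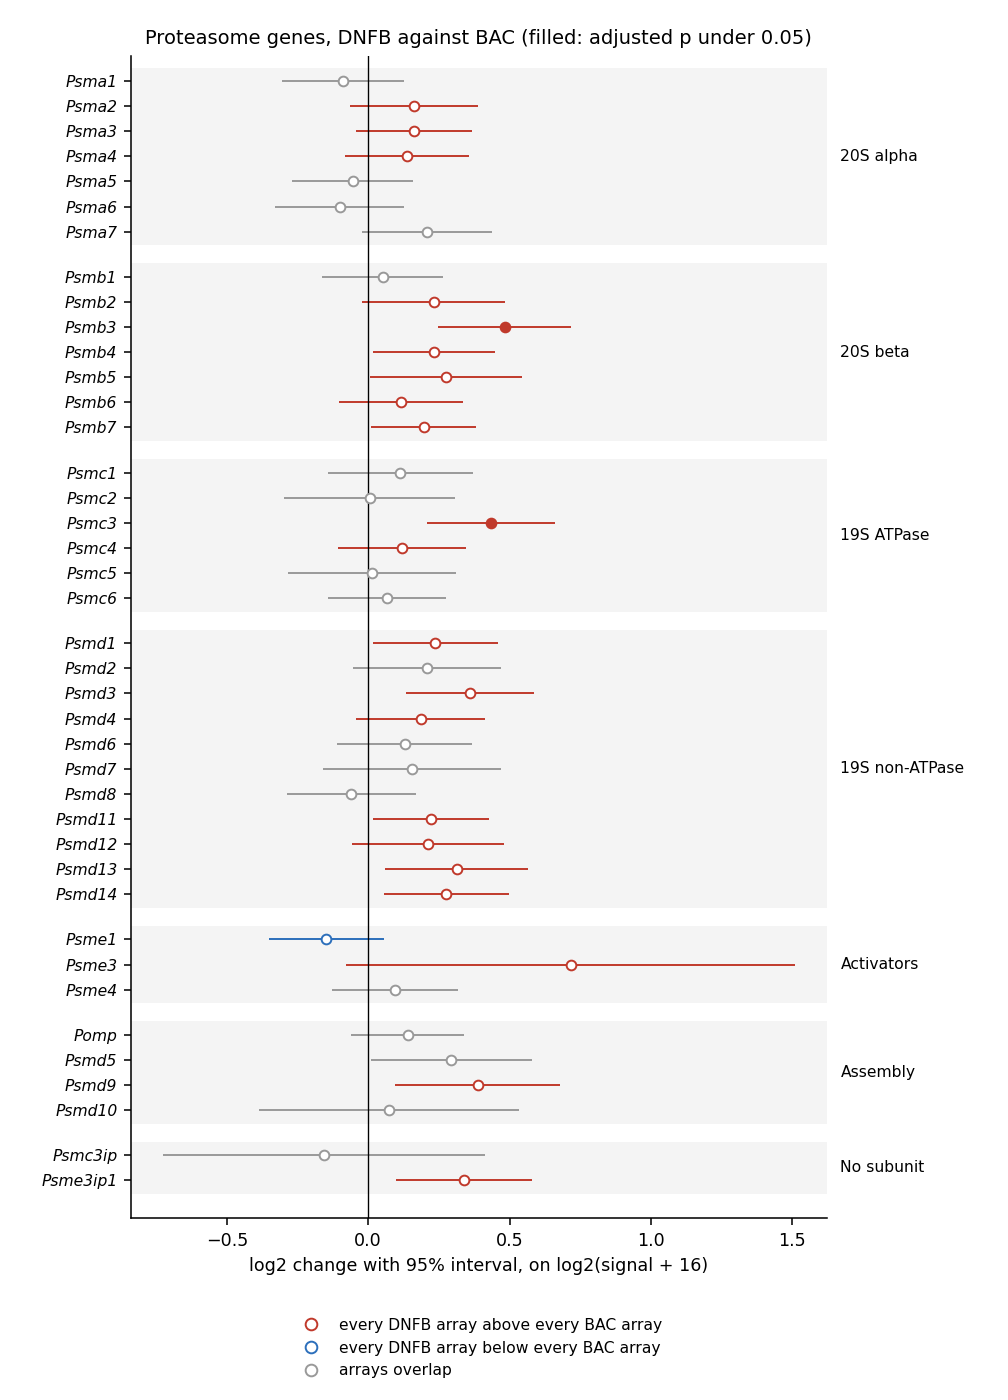
Log2 difference of DNFB against BAC (x axis, on log2(signal + 16), bars are 95% intervals from limma) for the 40 tested proteasome genes by role; red marks genes with every DNFB array above every BAC array, blue the reverse, grey overlapping arrays, and filled points an adjusted p under 0.05. Of the 40 points 34 lie to the right of 0 and 21 are red, and Psmb3 and Psmc3 are filled.

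Against the vehicle the same kind of count was read with care, because 1 vehicle array stood apart. After DNFB, 6 members lay wholly above the vehicle (15%, all tested genes 15.2%) and 4 wholly below (10%, all tested genes 15.6%). After BAC 0 lay wholly above (all tested genes 14.9%) and 11 wholly below (27.5%, all tested genes 19.2%). Vehicle replicate 2 was the highest vehicle array in 31 of the 40 members, and in 36.2% of all tested genes. The median member lay 0.11 above the vehicle mean in that array, and -0.03 and -0.09 from it in vehicle replicates 1 and 3. It was 0.03, 0.06 and 0.07 with DNFB and -0.14, -0.07 and -0.05 with BAC, so the members' median was higher in vehicle replicate 2 than in any treated array.

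Leaving that array out moved the counts. A count without overlap can only stay or rise when an array is left out. Without vehicle replicate 2, 18 members lay wholly above the vehicle after DNFB (45%, all tested genes 21.1%), and 6 passed limma's test: Psmb2, Psmb5, Psmc2, Psmd4, Psmd11 and Psmd14. The share of all tested genes called without this array is not given here, so these 6 calls cannot be set against it. After BAC the members with a value above 0 went from 9 to 19 of 40, Psmc2 rose, and those called lower were Psmd3 and Psme3. Without vehicle replicate 3, 17 lay wholly below the vehicle after BAC (42.5%, all tested genes 24.4%). The neutrophil genes S100a8 and S100a9 were also high in vehicle replicate 2, at 2565 and 2633, where the other vehicle arrays had 352 to 487; whether this bears on the proteasome values was not tested.

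**Figure D4:**
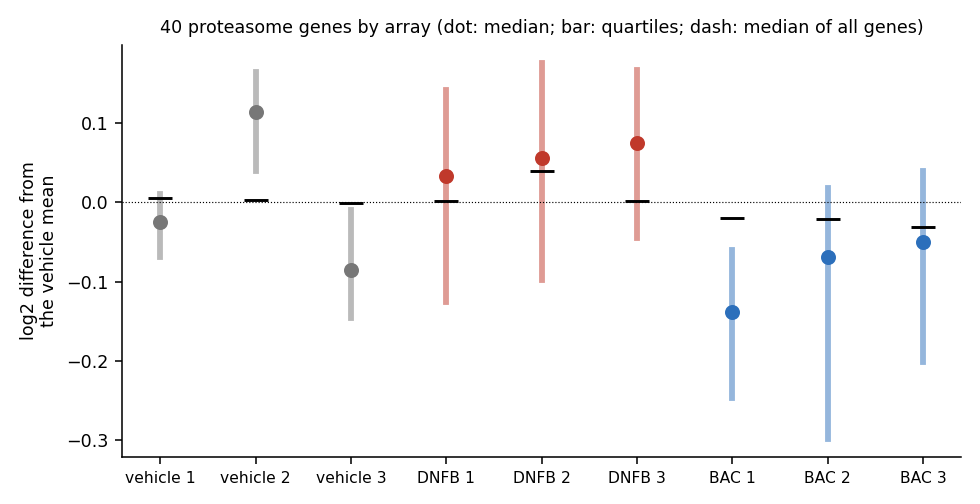
Log2 difference of the 40 proteasome genes from their vehicle mean (y axis) in each array: dots are medians, bars run between the quartiles, and black dashes are the medians of all tested genes. The dot of vehicle replicate 2 is the highest at 0.11, the DNFB arrays lie between 0.03 and 0.07, and the BAC arrays between -0.14 and -0.05.

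After DNFB, some genes around the proteasome changed by more than any subunit did. Among 15 proteasome-associated proteins measured of 17 listed, 3 rose after DNFB, 2 rose and 1 fell after BAC, and 3 were higher after DNFB than after BAC. Those 3 were Zfand5, Zfand2a and Txnl1, and all lost that call with the mean of their probe sets (0.35, 0.49 and 0.39, limma adjusted p = 0.192, 0.0646 and 0.268). Zfand5, a zinc finger protein known to stimulate the proteasome, had 2674, 2941 and 2333 in the vehicle, 7041, 6483 and 6120 in the DNFB and 4499, 4437 and 4984 in the BAC arrays. The groups were fully apart, with changes of 1.30 ± 0.11 and 0.81 ± 0.11 (limma adjusted p = 1.04e-06 and 9.81e-05). Averaged over its probe sets, Zfand5 had 0.32 after BAC and was not called (0.172), and the call between the compounds was also lost without BAC replicate 2 (0.0550) and without the intensity trend (0.0822). Zfand2a, its arsenite-inducible relative, rose by 1.24 ± 0.11 after DNFB and 0.40 ± 0.11 after BAC (adjusted p = 2.09e-06 and 0.0224); the call after BAC was lost without any single one of vehicle replicates 1 and 3 and BAC replicates 2 and 3 (0.0659, 0.0929, 0.0557 and 0.0754), with arrays centred on their medians (0.179) and without the intensity trend (0.0582). Txnl1, a thioredoxin-like protein bound to the cap, rose by 0.74 ± 0.10 after DNFB (0.000113) and had 0.15 ± 0.10 after BAC; the mean of its probe sets gave 0.35 after DNFB, without a call (0.279). Ube3c, a ubiquitin ligase at the proteasome, fell by 0.38 on the log2 scale after BAC (limma adjusted p = 0.0471), a call lost without any single array of the vehicle or BAC groups and without DNFB replicates 2 or 3 (0.0509 to 0.135). The mean of the Ube3c probe sets gave -0.12 after BAC (limma adjusted p = 0.661), and quantile normalization, median centring, testing every probe set, no intensity trend, the 2 groups only and the replicate block also ended the call (0.0548 to 0.0875).

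The immunoproteasome subunits, which replace the catalytic subunits under interferon, gave 0 calls of 3 in each comparison (limma; at an unadjusted p under 0.05, 0 against the vehicle with either compound and 1, Psmb10, between the compounds). Psmb8 had 244, 356 and 268 in the vehicle, 263, 306 and 435 in the DNFB and 327, 346 and 462 in the BAC arrays. Psmb9 had 166, 210 and 162, then 183, 158 and 262, then 216, 231 and 263. Psmb10 had 298, 393 and 407, then 360, 412 and 418, then 268, 279 and 319. For Psmb8 and Psmb10 the arrays overlapped between each compound and the vehicle, while for Psmb9 the BAC arrays all lay above the vehicle arrays. Changes after BAC were 0.37 ± 0.20, 0.37 ± 0.20 and -0.32 ± 0.15 in that order.

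Of the assembly chaperones outside the list, 4 of 5 were measured, and Psmg4 fell after BAC, by 0.41 on the log2 scale (limma adjusted p = 0.0422); the call was lost without vehicle replicates 1 or 2, DNFB replicate 3 or any BAC array (0.0547 to 0.163). The mean of the Psmg4 probe sets gave -0.23 (limma adjusted p = 0.436), and quantile normalization, median centring, testing every probe set and no intensity trend also ended the call (0.0542 to 0.0941). Of 11 genes of the p97 complex, which extracts ubiquitinated proteins and hands them to the proteasome, Ubxn4 rose after DNFB (0.38 ± 0.12, adjusted p = 0.037), a call lost without vehicle replicates 1 or 3 or DNFB replicates 1 or 3 (0.0962 to 0.137). The mean of the Ubxn4 probe sets gave 0.20 (limma adjusted p = 0.286), and the call was also lost with median centring (0.13), no intensity trend (0.103), the 2 groups only (0.0547) and the replicate block (0.0567). The p97 ATPase Vcp itself was higher after DNFB than after BAC (0.46 ± 0.10, adjusted p = 0.00913, and 0.0726 without the intensity trend), with signals of 6242, 5178 and 5927 against 4101, 4142 and 4298. Of the ubiquitin list 1 of 6 was measured, the activating enzyme Uba6, at -0.19 ± 0.16 after DNFB and -0.13 ± 0.16 after BAC.

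Of 12 genes that control proteasome gene transcription, 4 rose after DNFB and 5 after BAC. Nfe2l1, the regulator of the subunit genes, had 1787, 1809 and 1752 in the vehicle, 1686, 1261 and 1817 in the DNFB and 1756, 1946 and 1873 in the BAC arrays. The arrays overlapped, and its changes were -0.18 ± 0.12 and 0.06 ± 0.12 (limma adjusted p = 0.396 and 0.807); its activity is set largely at the protein level, which arrays do not measure. Nfe2l2, the oxidative stress regulator, rose from 1165, 1288 and 1148 to 2325, 2115 and 2059 after DNFB and 1945, 2591 and 2312 after BAC (0.84 ± 0.12 and 0.91 ± 0.12, adjusted p = 0.000153 and 7.07e-05). Both compounds lay above the vehicle in every array and overlapped each other; with the mean of its probe sets the change after BAC was 0.41 and not called (0.188). The small MAF genes Maff (2.81 ± 0.12 and 1.44 ± 0.12) and Mafk (1.69 ± 0.14 and 0.97 ± 0.14) rose after both and were higher after DNFB than after BAC, by 1.37 ± 0.12 and 0.71 ± 0.14; the Mafk difference lost its call without the intensity trend (limma adjusted p = 0.0618). The third small MAF gene, Mafg, was not called after either compound (0.41 ± 0.16 and 0.33 ± 0.16, adjusted p = 0.114 and 0.198). Nfya, a subunit of the CCAAT-binding factor, rose after DNFB (0.55 ± 0.14, adjusted p = 0.0122, 0.0506 without DNFB replicate 2 and 0.129 averaged over probe sets). Stat3, a cytokine-activated transcription factor, rose after BAC by 0.72 ± 0.12, as did Bach1, a repressor at antioxidant response elements, by 0.57 ± 0.13; both were lower after DNFB than after BAC (-0.53 ± 0.12 and -0.79 ± 0.13). The mean of the Bach1 probe sets gave -0.13 after BAC and -0.39 between the compounds, neither called (limma adjusted p = 0.698 and 0.245). The mean of the Stat3 probe sets gave 0.48 after DNFB, a call (0.0377) where the brightest had 0.18 and none, and -0.30 between the compounds, without a call (0.237). The Stat3 call between the compounds was lost without DNFB replicate 2 or BAC replicates 2 or 3 (limma adjusted p = 0.0728, 0.0523 and 0.0653), with median centring (0.0958) and without the intensity trend (0.1).

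The 6 members with the TGACNNNGC core in their promoter had changes after DNFB of 0.21 in Psmb5, 0.03 in Psmb6, -0.01 in Psmc6, 0.28 in Psmd12, 0.08 in Psmd9 and -0.19 in Psme4. After BAC, in the same order, they had -0.06, -0.08, -0.08, 0.07, -0.31 and -0.29. None was called after either compound. Of all tested genes, 6.76% rose and 7.08% fell after DNFB, and 6.59% rose and 7.64% fell after BAC. A link between the core and these changes was not tested.

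**Figure D5:**
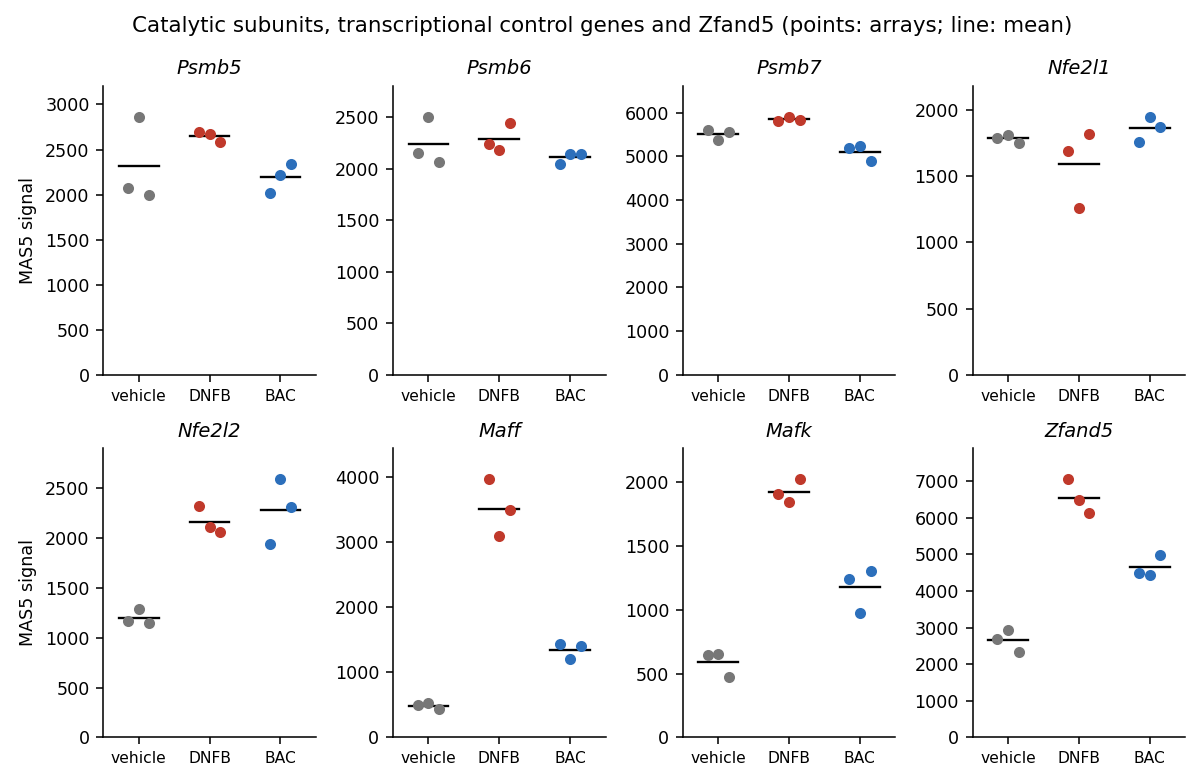
MAS5 signal (y axis, linear, starting at 0) in each array for the catalytic subunits Psmb5, Psmb6 and Psmb7, the control genes Nfe2l1, Nfe2l2, Maff and Mafk, and Zfand5; points are the 3 arrays of a group and lines their means. Nfe2l2, Maff, Mafk and Zfand5 are higher in every treated array than in every vehicle array, while Psmb5 and Psmb6 overlap the vehicle.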

How the data were processed

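RNA of 9 ear skin samples was biotin-labelled and measured on Affymetrix arrays, per the labels. The authors deposited linear intensities, namely MAS5 signals by probe set; per the submitters' processing notes the authors used MAS5 and Affymetrix Expression Console, with versions not given in the sources used here. Of 45101 probe sets, 34945 have 1 gene symbol. The brightest probe set stood for each gene, and 14122 genes above the array's 40th percentile in at least 3 arrays were tested on log2(signal + 16) with limma 3.58.1 in R 4.3.3 (all 9 arrays, intensity trend, two-sided, Benjamini-Hochberg threshold 0.05). The scripts were tested on simulated data. For DNFB against vehicle, BAC against vehicle and DNFB against BAC, 56%, 62% and 64% of simulated 2-fold changes were recovered. For 4-fold changes these shares were 88%, 84% and 89%. Changes under 2-fold were not simulated, so a missing call does not exclude such a change. With 3 arrays a group, exact permutation reaches no p under 0.1, so none was run. The number of arrays limits the precision.

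Members and gene lists were chosen with earlier results of these data known. Array values are given for called members, catalytic subunits, activators and Pomp, and for Zfand5, Nfe2l1, Nfe2l2 and the immunoproteasome genes. Most other named genes of the lists are given by their change only. The array values of Psma6, Vcp, S100a8 and S100a9 were added after they were seen. The activator Psme2 is annotated to a probe set of several genes and is not analysed here. All 42 members matched RefSeq by gene identifier. The deviations of same-numbered arrays were weakly correlated (r from -0.12 to 0.15 over 9 pairs), and replicate numbers were not treated as pairs. Such values cannot exclude pairing, and the labels do not say whether ears of the same animal were paired.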

Additional observations from a re-analysis of the deposited data

How the results depend on the processing

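Settings were changed 1 at a time, and the counts of arrays without overlap and of values above 0 were added after seeing the data. The share of all tested genes called is given for the main setting only. Members higher after DNFB went from 2 to 1 with no filter, quantile normalization, the mean of probe sets, every probe set tested alone, or the arrays of the 2 groups only, and to 0 with median centring or no intensity trend; with 1 array left out they ran from 0 to 6. Members lower after DNFB went from 0 to 1 with quantile normalization and ran from 0 to 1. Members lower after BAC went from 4 to 7 with quantile normalization and 1 without the trend, and ran from 1 to 4; members higher ran from 0 to 1. Members higher after DNFB than after BAC went from 2 to 1 with median centring and 0 without the trend, and ran from 0 to 2. With the replicate block, 1 member was higher after DNFB, with no other count of calls changed by over 1.5 times. Whether the replicate numbers pair the samples is not stated. Without overlap, members above the vehicle after DNFB went from 6 to 3 (quantile) and 2 (median centring), beside 15.2%, 16.4% and 11.7% of all tested genes. Members below the vehicle went from 4 to 8 and 1, beside 15.6%, 13.9% and 13.9%. With 1 array left out, members above ran from 6 to 18 (all tested genes 18.2% to 21.3%) and below from 4 to 7 (18.4% to 21.3%). Members below the vehicle after BAC then ran from 12 to 17 (all tested genes 22.1% to 25.2%). Leaving out an array can only keep or raise a count without overlap, so these ranges do not check it. Values above 0 after BAC went from 9 to 5 with median centring, where the share of all tested genes went from 46.63% to 37.74%. With 1 array left out they ran from 7 to 19 (all tested genes 45.59% to 47.23%). Signs reversed for Pomp (-0.057) and Psmb7 (-0.050) after DNFB with quantile normalization, Psmb5 after BAC without vehicle replicate 2 (0.10, where leaving out 1 array gave -0.16 to 0.10), and Psmd10 between the compounds without DNFB replicate 2 (-0.14, where leaving out 1 array gave -0.14 to 0.26). With the mean of probe sets, signs reversed after DNFB for Psmd4 (-0.15) and Psmd9 (-0.33). After BAC they reversed for Psmd4 (-0.41), Bach1 (-0.13), Txnl1 (-0.046), Ubxn4 (-0.058) and Psma6 (0.0002). Between the compounds they reversed for Psme4 (-0.14), Psmd9 (-0.28), Ube3c (-0.063), Nfe2l2 (0.23) and Uba6 (0.17). The cause was not tested. Signs were followed only for called members and a chosen set of other genes. A sign change between 2 uncalled values within 1 SE of each other was left out. These lists are therefore partial. With the mean of probe sets, members above 0 went from 23 to 17 after DNFB (all tested genes 50.26% to 48.16%). After BAC they went from 9 to 12 (46.63% to 47.95%). Of the rest, 34 members above 0 in DNFB against BAC (all tested genes 53.34%) stayed between 28 and 36. The 28 came with the mean of probe sets (all tested genes 49.11%), and the 36 with median centring (62.09%).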
